A study of Mus musculus with 15 samples.

Results

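Aldehyde and xenobiotic detoxification was followed through 6 enzyme genes, Aldh1a1, Aldh2, Adh5, Sult1a1, Gstm1 and Gstm2, in hematopoietic stem cells (HSCs), the rare bone marrow cells from which all blood lineages descend. The genes were taken by symbol, and all 6 were found once each among the 20696 genes of the deposited table, whose values are FPKM (fragments per kilobase of gene model, scaled to library size). Per the labels, the 15 bulk RNA-seq libraries fell into 3 groups of 5. They were HSCs of aged Thbs1 knockout mice of 18 months, of aged control mice of 18 months and of young control mice of 3 months. Thbs1 encodes thrombospondin-1, a secreted glycoprotein of platelets and extracellular matrix. Cells were purified by flow sorting into TRIzol-LS, and 2 ng of total RNA went into each SMART-Seq v4 library. The labels name no strain, no knockout allele, no tissue in which it was deleted and no sorting gate. They also do not tie each library to an animal of its own, so every p-value below is against the spread between libraries, some of which may be technical.

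Metabolism and the diet continuously produce reactive aldehydes, which crosslink DNA to protein and strand to strand. Aldehyde dehydrogenases oxidize them to acids, ALDH2 in mitochondria (acetaldehyde) and ALDH1A1 in the cytosol, where it also makes retinoic acid from retinal. ADH5 clears formaldehyde after it has joined glutathione. In mice, loss of Aldh2 or Adh5 together with the Fanconi crosslink repair pathway depletes HSCs. The conjugating enzymes act on other reactive compounds: sulfotransferases such as SULT1A1 attach sulfate to phenols, and glutathione S-transferases of the Mu class (Gstm genes) attach glutathione to electrophiles.

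Reads in genes per library, estimated from the smallest steps between FPKM values, ranged between 16.6e6 and 28.6e6. Replicates 2 and 5 of the libraries labelled aged Thbs1 knockout had 4.57% and 2.23% of reads in rRNA-like genes, against 0.583% to 1.49% in the other 13 libraries. Thbs1 itself was not lower in the libraries that carry the knockout label: it had 2.53, 1.69, 17.89, 12.69 and 17.25 FPKM in them, 0.20, 0.01, 0.62, 8.75 and 4.90 FPKM in aged controls and 0.76, 0.70, 13.38, 2.42 and 3.95 FPKM in young controls. The difference of the labelled knockout libraries from aged controls was 1.73 on the log2(FPKM + 1) scale (SE 0.71, adjusted p = 0.302), in the direction opposite to the label. The label is therefore written as such throughout, and any direction drawn from it carries this doubt. Groups were taken from the sample titles in the table. GEO's sample descriptions tie 10 of the 15 columns to other samples, and with that pairing 0 genes were called between aged and young controls, where Sult1a1 differed by -0.47 and Gstm2 by -1.43, opposite to the values given below. The table's library names also give a sex: replicates 1 and 2 of the labelled knockout libraries, replicates 1 to 3 of the aged controls and replicates 1 and 2 of the young controls are male, and the other 8 libraries are female. The defining HSC genes were present, with Kit at 34.48 to 162.62 FPKM, Procr at 43.29 to 133.20 FPKM and Hlf at 25.30 to 44.76 FPKM over all libraries. Of the marker lists of other cell types, Ebf1 and Ms4a1 (B cells), Cd3g and Klrd1 (T and NK cells), Ltf (neutrophils), Csf1r, Adgre1, Itgax and C1qa (macrophages and dendritic cells) and Cdh5, Cxcl12, Lepr, Col1a1 and Pdgfra (endothelium and stroma) were under 1 FPKM in every library. Other genes of the same lists were not: Cd79b had 29.22 to 63.83 FPKM, Nkg7 21.87 to 117.11 FPKM, Cd68 5.35 to 12.08 FPKM and Pecam1 5.62 to 12.33 FPKM over all libraries, and S100a8 and S100a9 reached 19.31 and 20.12 FPKM in the library where each was highest.

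Among the 6 genes, 1 sulfotransferase gene and 1 glutathione S-transferase gene rose with age. Of the 6 genes, 2 rose in aged controls against young controls by limma at an adjusted p under 0.05 (Sult1a1, 3.72-fold in mean FPKM, and Gstm2, 7.54-fold) and none fell, where 4.42% of the 11345 genes tested were called, 3.18% rising and 1.23% falling. In 3 of the 6 genes (Sult1a1, Gstm2 and Aldh1a1), every aged control library lay above every young control library, against 4.57% of all tested genes. The median difference of the 6 genes was 0.78 on the log2(FPKM + 1) scale, on which all differences below are given as the first group minus the second, against -0.02 over all tested genes. Of the 6 genes, 0 passed limma's test where the labelled knockout libraries were set against aged controls. There 1.55% of tested genes passed (0.361% rose and 1.19% fell; 1469 genes had an unadjusted p under 0.05), each of the 6 genes overlapped between these groups, and the median difference was -0.15 against -0.03. Between the labelled knockout libraries and young controls, again 2 of the 6 rose (Sult1a1 and Gstm2), where 1.63% of tested genes were called, 1.01% rising and 0.617% falling. The same 3 genes lay above all young controls in every labelled knockout library, against 2.18% of tested genes. The median difference was 0.64 there, against -0.06 over all tested genes. Each pair of comparisons shares a group of libraries, so they are not independent of each other. The 6 genes were chosen with earlier results of these data known, so their shares and medians are descriptions and no test of the set. All 6 genes passed the filter on low values, a mean of at least 1 FPKM over the 15 libraries. All 6 were highly expressed, at the 83.4th (Adh5) to the 98.5th (Gstm1) percentile of tested genes by mean FPKM.

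**Figure D1:**
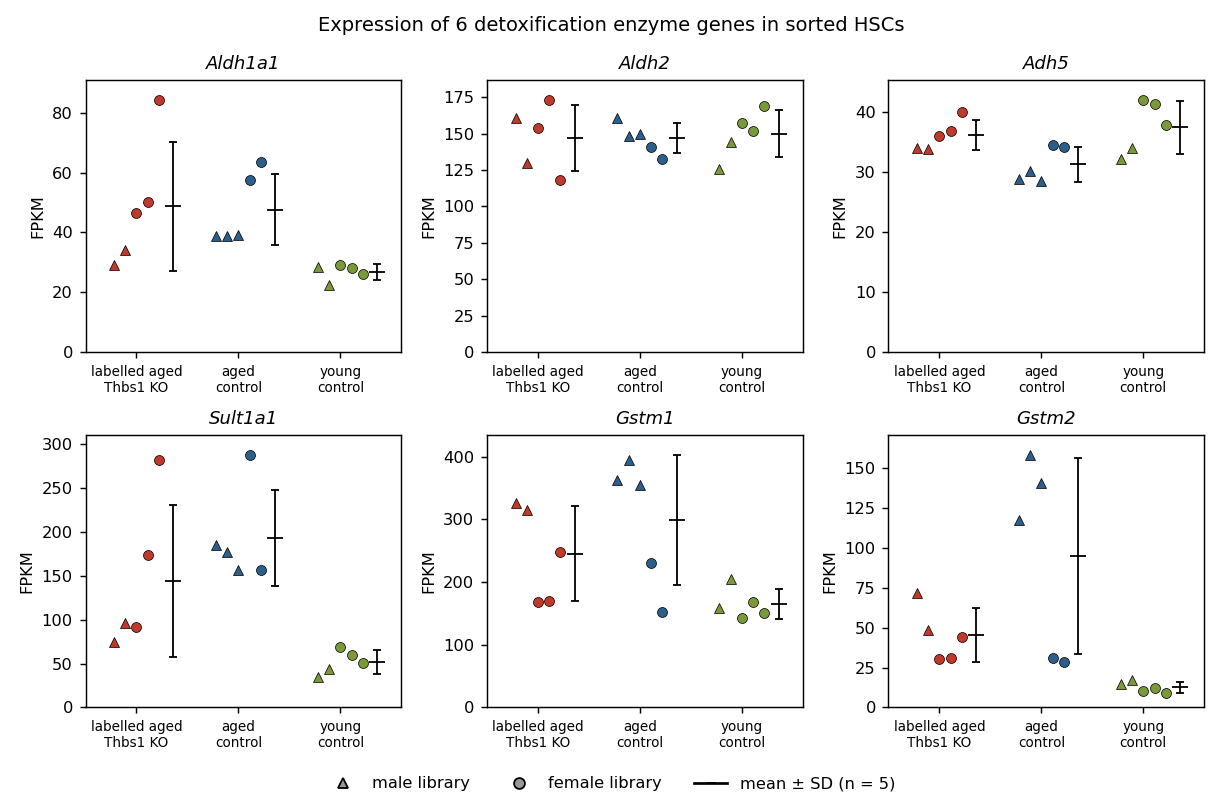
FPKM of the 6 genes in each library (points; triangles male, circles female) by group, with the mean and SD of the 5 libraries beside them; the vertical axes start at 0. Aged control libraries lie at 156.42 to 287.42 FPKM for Sult1a1 and at 28.77 to 158.13 FPKM for Gstm2, above all young control libraries, while the 3 groups overlap for Aldh2.

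**Figure D2:**
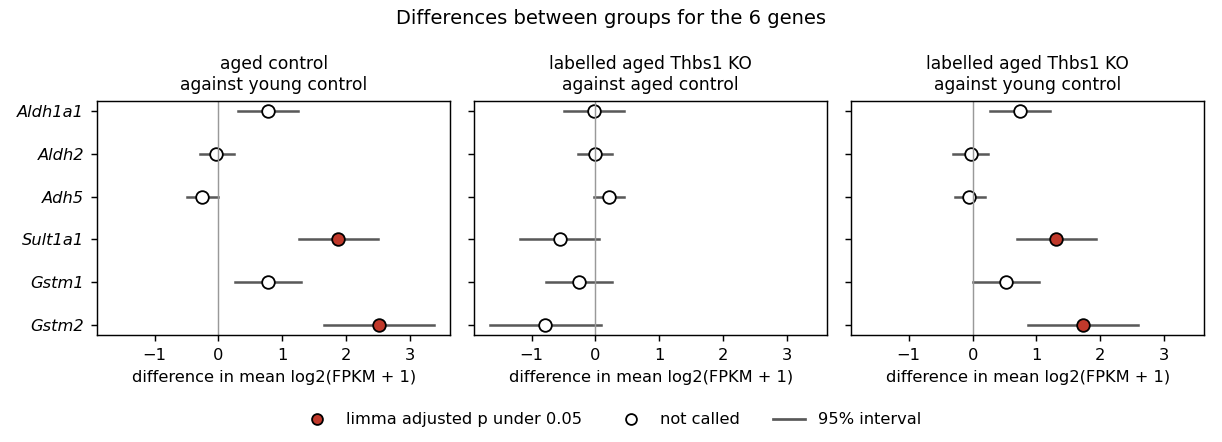
Difference in mean log2(FPKM + 1) for the 6 genes in each comparison (horizontal axis), with its 95% interval; filled points passed limma's adjusted p of 0.05. Sult1a1 and Gstm2 are filled in both comparisons with young controls, and no point is filled where the libraries labelled aged Thbs1 knockout are set against aged controls.

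The aldehyde dehydrogenases behaved differently from one another. Aldh1a1 (ENSMUSG00000053279, GRCm38 19:20492715-20643465, plus strand), the cytosolic enzyme, had 29.24, 33.97, 46.33, 50.33 and 84.34 FPKM in the libraries labelled aged Thbs1 knockout. It had 38.83, 38.94, 39.24, 57.43 and 63.46 FPKM in aged controls and 28.55, 22.45, 29.12, 28.02 and 25.92 FPKM in young controls. Every library of both aged groups lay above every young control library, and both aged groups overlapped widely. Aldh1a1 averaged 47.6 ± 11.9 FPKM in aged controls and 26.8 ± 2.72 FPKM in young controls (SD, n = 5 each), a ratio of 1.77. The difference of 0.78 (SE 0.22, 95% interval 0.31 to 1.25) missed the threshold over all genes (adjusted p = 0.0564), while the exact two-sided permutation test gave p = 0.00794, the smallest that 5 libraries against 5 allow. The labelled knockout libraries averaged 48.8 ± 21.6 FPKM (n = 5), a difference of 0.75 from young controls (SE 0.22, adjusted p = 0.0979) and of -0.03 from aged controls (SE 0.22, adjusted p = 0.974). Since all groups share 1 estimate of the spread, libraries outside a comparison also bear on its p: without replicates 2 and 5 of the labelled knockout group, the difference between aged and young controls was again 0.78, with an adjusted p of 0.00907. It was called in 3 of the 15 fits that left out 1 library, those without replicate 1, 2 or 5 of the labelled knockout group. In bulk RNA, more cells of a type and more RNA per cell cannot be told apart.

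Aldh2 (ENSMUSG00000029455, 5:121566027-121593824, minus strand), the mitochondrial acetaldehyde dehydrogenase, was the aldehyde dehydrogenase with the highest mean level, ranking 1 of the 19 in the table by FPKM, while Aldh1a1 ranked 4. It had 161.05, 130.10, 153.84, 173.16 and 118.31 FPKM in the libraries labelled aged Thbs1 knockout. It had 160.80, 148.66, 150.02, 140.91 and 132.58 FPKM in aged controls and 125.89, 144.07, 157.40, 151.52 and 169.02 FPKM in young controls. The 3 groups overlapped, and their means were 147, 147 and 150 FPKM. The 95% interval for aged against young controls was -0.29 to 0.24 on the log2 scale, and that for the labelled knockout libraries against aged controls was -0.27 to 0.26.

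Adh5 (ENSMUSG00000028138, 3:138443093-138455499, plus strand), the formaldehyde enzyme, had 34.03, 33.83, 36.04, 36.81 and 40.09 FPKM in the libraries labelled aged Thbs1 knockout. It had 28.93, 30.11, 28.55, 34.56 and 34.22 FPKM in aged controls and 32.12, 33.98, 42.06, 41.39 and 37.92 FPKM in young controls. The aged control replicates 1 to 3 were below every young control and every labelled knockout library, and replicates 4 and 5 lay among them. The aged controls averaged 31.3 ± 2.90 FPKM and the young controls 37.5 ± 4.40 FPKM (SD, n = 5 each), a difference of -0.25 (SE 0.11, adjusted p = 0.224, exact permutation p = 0.0476). The labelled knockout libraries averaged 36.2 ± 2.54 FPKM, 0.21 from aged controls (SE 0.11, adjusted p = 0.458) and -0.05 from young controls (adjusted p = 0.821). None of these differences passed the test over all genes. Esd, which completes formaldehyde clearance after ADH5, differed by 0.09 between aged and young controls (adjusted p = 0.731).

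Sult1a1 (ENSMUSG00000030711, 7:126672865-126676432, minus strand), the phenol sulfotransferase, had 74.86, 96.55, 91.35, 174.41 and 282.25 FPKM in the libraries labelled aged Thbs1 knockout. It had 185.48, 177.53, 156.67, 287.42 and 156.42 FPKM in aged controls and 34.49, 43.83, 68.93, 60.31 and 51.22 FPKM in young controls. Every library of both aged groups exceeded all young controls. Sult1a1 averaged 144 ± 86.4 FPKM in the labelled knockout libraries, 193 ± 54.5 FPKM in aged controls and 51.8 ± 13.5 FPKM in young controls (SD, n = 5 each), and both aged groups did not differ beyond their spread. Sult1a1 rose by 1.88 in aged against young controls (SE 0.30, adjusted p = 0.000632), and this call was made in each of the 15 fits that left out 1 library. The labelled knockout libraries stood 1.31 above young controls (SE 0.30, adjusted p = 0.0287) and -0.56 from aged controls (SE 0.30, 95% interval -1.18 to 0.06, adjusted p = 0.436). The call against young controls was made in 12 of the 15 fits without 1 library. It was lost without young control replicate 1, 2 or 5 (adjusted p = 0.0971, 0.0701 and 0.0709), and without replicates 2 and 5 of the labelled knockout group the difference was 1.06 (adjusted p = 0.08). Papss1, which makes the sulfate donor that SULT1A1 uses, differed by 0.12 between aged and young controls (adjusted p = 0.522). Of the 1507 exon bases of Sult1a1, 61 (4.05%) also belong to exons of Sgf29 on the opposite strand, and no source used here says whether reads were counted by strand. Sgf29 averaged 55.0, 55.4 and 44.5 FPKM in the labelled knockout libraries, aged controls and young controls.

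Across the 15 libraries, Sult1a1 and Aldh1a1 levels went together (Pearson r = 0.86 on log2 values, a description over libraries that share group, sex and depth), and Gstm1 and Gstm2 did so as well (r = 0.91). Because the levels of each pair moved together, the bases before a RefSeq start of these 4 genes are shown. They come from RefSeq (GRCm38.p6), leaving out annotated exons; of the 2 starts listed for Aldh1a1 the downstream one was taken and of the 2 for Gstm1 the upstream one, and the capitals mark every match to 1 of 5 motifs on either strand. Each sequence is on the strand of its gene. In order they span 3:107986454-107986670 (217 bases), 3:108017974-108018223 (250 bases), 7:126676433-126676668 (236 bases) and 19:20601718-20601960 (243 bases).
Gstm2: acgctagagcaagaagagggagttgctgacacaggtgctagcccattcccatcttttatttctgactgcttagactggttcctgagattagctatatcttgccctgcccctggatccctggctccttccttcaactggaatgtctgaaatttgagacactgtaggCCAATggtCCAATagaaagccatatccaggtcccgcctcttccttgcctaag
Gstm1: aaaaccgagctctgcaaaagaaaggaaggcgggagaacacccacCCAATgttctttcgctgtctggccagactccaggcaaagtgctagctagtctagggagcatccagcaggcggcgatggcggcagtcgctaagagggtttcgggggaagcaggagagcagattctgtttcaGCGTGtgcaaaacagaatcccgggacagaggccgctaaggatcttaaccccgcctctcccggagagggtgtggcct
Sult1a1: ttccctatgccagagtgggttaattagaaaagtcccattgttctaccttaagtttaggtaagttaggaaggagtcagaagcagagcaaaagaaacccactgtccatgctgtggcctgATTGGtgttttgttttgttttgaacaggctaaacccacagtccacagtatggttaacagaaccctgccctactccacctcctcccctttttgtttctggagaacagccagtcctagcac
Aldh1a1: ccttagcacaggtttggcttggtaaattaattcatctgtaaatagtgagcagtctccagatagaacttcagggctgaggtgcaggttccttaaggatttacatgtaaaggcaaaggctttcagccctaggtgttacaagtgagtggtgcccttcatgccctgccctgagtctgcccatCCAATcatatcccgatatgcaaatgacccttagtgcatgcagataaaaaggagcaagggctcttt
The motifs searched were TGACNNNGC (the core of the antioxidant response element bound by NRF2), GCGTG (the core bound by the AHR complex), AGGTCA (a nuclear receptor half-site), TATAAA and CCAAT, and no match overlapped another of a different motif. In the Gstm2 sequence the capitals are CCAAT at 85 and 77 bases before the start. In the Gstm1 sequence they are CCAAT and GCGTG, at 206 and 76 bases, in Sult1a1 ATTGG, which is CCAAT on the opposite strand, at 133 bases, and in Aldh1a1 CCAAT at 72 bases. CCAAT was found in 5 of the 8 windows that RefSeq gives for 5 of the 6 genes, and in 33.8% of 32851 windows of all genes. GCGTG was in 2 of the 8 windows, which are the overlapping windows of both Gstm1 starts, and in 28.2% of all windows. TATAAA was in 2 of the 8, the downstream Gstm1 window and the upstream Adh5 window, and in 12.4% of all windows. TGACNNNGC and AGGTCA were in none of the 8 windows, and in 10.2% and 14.0% of all windows. The upstream Aldh1a1 window and the downstream Adh5 window held no match to any of the 5 motifs. A match is a description of letters and not a binding site.

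The Mu-class glutathione S-transferases lie together on chromosome 3, where 7 Gstm genes fall within 149 kb in the order Gstm5, Gstm7, Gstm6, Gstm3, Gstm2, Gstm1 and Gstm4. Gstm1 (ENSMUSG00000058135, 3:108012255-108017973, minus strand) and Gstm2 (ENSMUSG00000040562, 3:107981702-107986453, minus strand) are neighbours with 25801 bases between them. Their coding sequences, 657 bases each with the stop codon, are 86.0% identical position by position. Their longest identical run is 60 bases, starting at coding position 193 of both. It is shown beside the longest run that Gstm1 shares with the barely expressed Gstm3, 112 bases at positions 389 to 500, since sequence cannot assign a short read that falls within such a run. Both were read from GENCODE M21 transcripts.
Gstm1 and Gstm2: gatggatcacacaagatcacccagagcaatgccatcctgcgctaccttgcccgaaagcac
Gstm1 and Gstm3: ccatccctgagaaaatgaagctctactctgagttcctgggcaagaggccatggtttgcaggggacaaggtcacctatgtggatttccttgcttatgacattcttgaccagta
Of all 50-base words in annotated Gstm1 transcripts, 18.9% also occurred in a transcript of another gene, and 0.724% occurred in Gstm2. For Gstm2 the share was 5.65%, with 0.655% in Gstm1. At 100 bases the shares fell to 5.86% and 0.357%. Gstm2-ps1, the pseudogene with the most Gstm1 words (14.1%), had at most 1.77 FPKM in any library and Gstm3 at most 1.02 FPKM. No source used here says how reads that match more than 1 gene were counted.

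Gstm2 had 71.85, 48.76, 30.63, 31.19 and 43.98 FPKM in the libraries labelled aged Thbs1 knockout. It had 117.41, 158.13, 140.66, 30.76 and 28.77 FPKM in aged controls and 14.42, 17.34, 10.32, 12.20 and 8.78 FPKM in young controls. No library of either aged group fell as low as any young control, and the aged controls split into 3 libraries above 117 FPKM and 2 near 30 FPKM. Gstm2 averaged 95.1 ± 61.4 FPKM in aged controls and 12.6 ± 3.38 FPKM in young controls (SD, n = 5 each), and rose by 2.52 (SE 0.41, adjusted p = 0.000874), a call made in each of the 15 fits without 1 library. The labelled knockout libraries averaged 45.3 ± 16.8 FPKM, 1.73 above young controls (SE 0.41, adjusted p = 0.039) and -0.79 from aged controls (SE 0.41, 95% interval -1.65 to 0.08, adjusted p = 0.434). The call of the labelled knockout libraries against young controls was made in 7 of the 15 fits that left out 1 library and was lost without any 1 of the young controls or without replicate 1, 2 or 5 of the labelled knockout group (adjusted p up to 0.114). Without both replicates 2 and 5 of that group the difference was 1.66 (adjusted p = 0.192).

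Gstm1, the most abundant of the 6 genes, had 325.93, 314.88, 167.52, 170.45 and 248.45 FPKM in the libraries labelled aged Thbs1 knockout. It had 363.20, 395.15, 354.60, 231.08 and 152.40 FPKM in aged controls and 158.96, 205.28, 143.41, 167.77 and 150.05 FPKM in young controls. Of the aged control libraries 4 lay above all young controls, and replicate 5 lay within their range. Aged controls averaged 299 ± 103 FPKM and young controls 165 ± 24.3 FPKM (SD, n = 5 each), a difference of 0.78 (SE 0.25, 95% interval 0.26 to 1.30) that was not called (adjusted p = 0.0834). Without aged control replicate 5 the difference was 1.0 (adjusted p = 0.0081), and it was called in this 1 of the 15 fits without 1 library. The labelled knockout libraries averaged 245 ± 75.8 FPKM, -0.26 from aged controls (SE 0.25, adjusted p = 0.694) and 0.52 from young controls (SE 0.25, adjusted p = 0.234).

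The split among the aged controls followed the sex in the library names. The test of sex across the 3 groups was added after the data were seen, and 12.9% of tested genes differed between female and male libraries with group as a covariate, 9.67% being higher and 3.27% lower in females. Gstm2 was lower in female libraries (-1.16, SE 0.21, adjusted p = 0.0054), as was Gstm1 (-0.65, SE 0.14, adjusted p = 0.0111), while Aldh1a1 was higher in females by 0.53 (SE 0.14, adjusted p = 0.0215). Sult1a1 (0.62, adjusted p = 0.0524), Adh5 (0.22, adjusted p = 0.059) and Aldh2 (0.03, adjusted p = 0.859) were not called. In males Gstm2 averaged 60.3 FPKM in the labelled knockout libraries, 139 FPKM in aged controls and 15.9 FPKM in young controls (n = 2, 3 and 2). In females it averaged 35.3, 29.8 and 10.4 FPKM in the same groups (n = 3, 2 and 3). Thbs1 was also higher in female libraries, by 2.30 (SE 0.25, adjusted p = 0.000147), and within each group the male libraries had the lowest Thbs1. The Thbs1 difference of 1.73 between labelled knockout and aged control libraries, given above, was not adjusted for sex. In males Thbs1 averaged 2.11 FPKM in the labelled knockout libraries and 0.277 FPKM in aged controls (n = 2 and 3). In females it averaged 15.9 and 6.83 FPKM in these groups (n = 3 and 2). The labels give no litter, sort date or sequencing batch that could be set apart from sex, and the male libraries carry the lower replicate numbers, so sex and anything else that follows those numbers cannot be told apart.

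Within each sex, Gstm2 rose in aged against young controls. The difference was 3.04 in males (SE 0.19, adjusted p = 1.64e-06) and 1.44 in females (SE 0.21, adjusted p = 0.0408), where 9.63% and 0.238% of tested genes were called. Female minus male, the difference between these changes was -1.61 (SE 0.30, adjusted p = 0.356 from limma's interaction term, which 0 tested genes passed and 998 met at an unadjusted p under 0.05). Before adjustment over all tested genes, limma gave this difference of changes a p of 9.45e-05. Against aged controls, Gstm2 in the labelled knockout libraries fell by 1.20 on the log2 scale in males (SE 0.19, adjusted p = 0.00523), and the difference in females was 0.22 (SE 0.21, adjusted p = 0.931). Female minus male, these changes differed by 1.42 (SE 0.30, unadjusted p = 0.000299, adjusted p = 0.386). Sult1a1 showed -1.01 in males (SE 0.17, adjusted p = 0.00787) and -0.36 in females (SE 0.43, adjusted p = 0.931) in the same comparison, and the difference of these changes, 0.66 (SE 0.50, adjusted p = 0.999), was not called. In that comparison 2.12% of tested genes were called in males and 0.0881% in females. With sex as a covariate, none of the 6 was called between the labelled knockout libraries and aged controls, where 2.11% of tested genes were. Between aged and young controls, 4 of the 6 rose with that covariate, where 5.51% of tested genes were called: Gstm2 by 2.28, Sult1a1 by 2.00, Aldh1a1 by 0.88 (adjusted p = 0.00335) and Gstm1 by 0.65 (adjusted p = 0.0312). In the labelled knockout libraries against young controls, 3 of the 6 were higher with that covariate, where 3.78% of tested genes were called (Gstm2, Sult1a1 and, by 0.75 with an adjusted p of 0.0184, Aldh1a1). Within males Gstm2, Sult1a1 and Gstm1 were called in that comparison (1.84, 1.11 and 0.82), where 7.71% of tested genes were, and within females Gstm2 alone of the 6 (1.66, adjusted p = 0.014), where 0.097% were. Between aged and young controls Sult1a1 rose in males by 2.12 (adjusted p = 1.48e-05), with 1.81 in females (SE 0.43, adjusted p = 0.189), and Aldh1a1 rose in males by 0.60 (adjusted p = 0.0373), with 1.10 in females (SE 0.25, adjusted p = 0.153). In that comparison Gstm1 rose in males by 1.03 (SE 0.17, adjusted p = 0.00339), against a difference of 0.29 in females (SE 0.25), which was not called.

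With the sexes pooled, the relatives of both genes in the cluster gave differences of the same sign between aged and young controls. None of these differences was called. They were 0.42 for Gstm4 (adjusted p = 0.245), 0.55 for Gstm5 (0.163), 0.73 for Gstm6 (0.0997) and 0.69 for Gstm7 (0.0891), with ratios of mean FPKM of 1.42, 1.49, 2.63 and 1.74 against 7.54 for Gstm2. The ratio of Gstm6 rests on low values, with a young control mean of 0.868 FPKM on at most 57 reads a library. Gstm6 passed the filter only through the aged groups. Among aged controls Gstm4 split by sex as Gstm2 did. It had 31.29, 34.26 and 35.04 FPKM in male and 18.61 and 15.24 FPKM in female aged controls. It was lower in female libraries over the 3 groups (-0.43, SE 0.13, adjusted p = 0.0404). In males Gstm4 averaged 33.5 FPKM in aged and 19.2 FPKM in young controls. In females it averaged 16.9 and 18.8 FPKM in the same groups, whereas Gstm2 rose in both sexes. Female minus male, the change of Gstm4 was -0.92 (SE 0.22, unadjusted p = 0.00103 and adjusted p = 0.465 by limma). The means of Gstm5, Gstm6 and Gstm7 were higher in aged than in young controls in both sexes. Gstm3, at 0 to 1.02 FPKM, was below the filter. Aldh1a7, a near copy of Aldh1a1 (91.6% identical in coding sequence, 3.06% of Aldh1a1 50-base words shared), was also below the filter, at means of 0.598, 0.096 and 0.876 FPKM in the labelled knockout libraries, aged controls and young controls. Every aged control lay below every young control for Aldh1a7, opposite to Aldh1a1, on at most 70 reads a library. Of the tested genes 2.59% were separated in that direction. They do not include Aldh1a7 and passed the filter it failed, so that share is not a matched background for it.

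**Figure D3:**
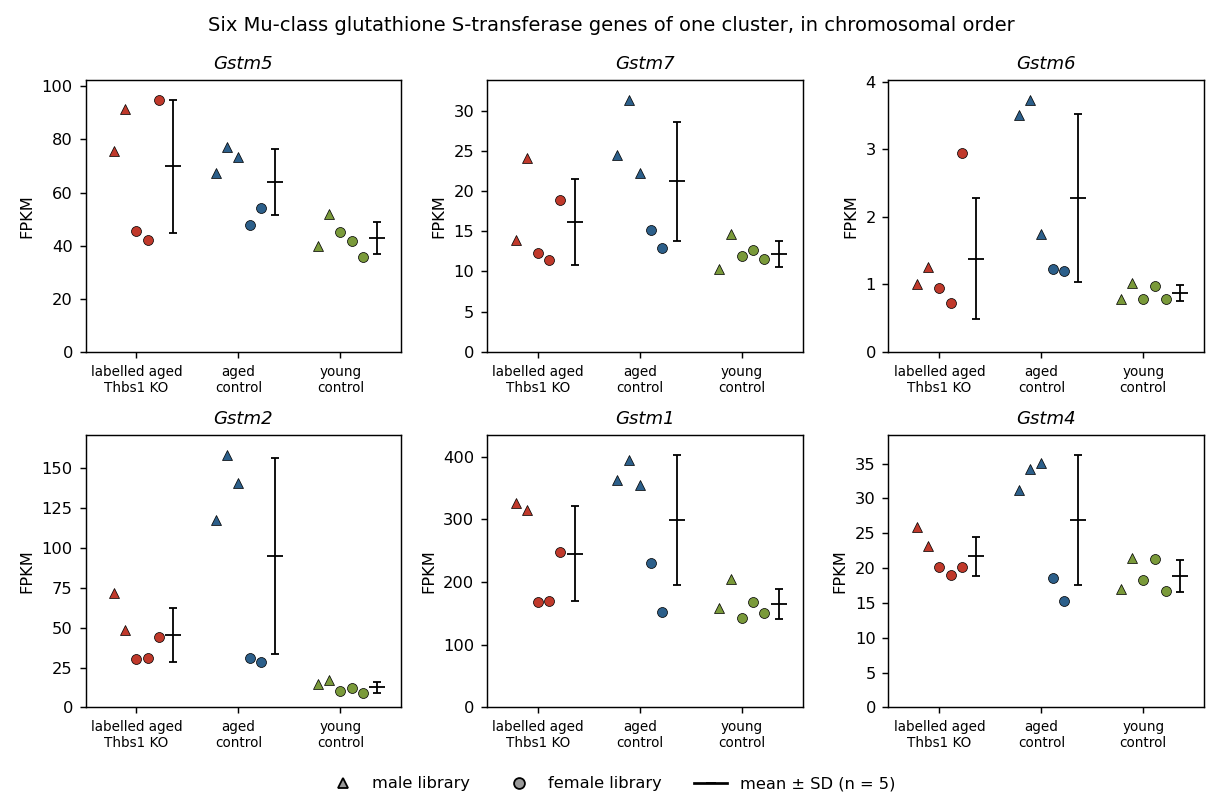
FPKM of 6 Gstm genes in each library (points; triangles male, circles female) by group, with mean and SD of 5 libraries, in the order of the genes along chromosome 3; axes start at 0. Among aged controls, the 3 male libraries lie above both female libraries in all 6 panels, from 117.41 to 158.13 FPKM against 28.77 and 30.76 FPKM for Gstm2.

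Beyond the 6 genes, 10 lists of related enzymes and regulators held 144 other genes, of which 124 were in the table and 88 were tested. Counts of tested genes given per list include the 6. Between aged and young controls 10 of the 88 rose and 4 fell, 15.9% against 4.42% of all tested genes. Those that rose include Aldh3a1 and Ggt1, whose means in young controls were under the 1 FPKM of the filter. The lists were chosen with earlier results of these data known, so an excess over that share is not a test of enrichment. Of 13 tested aldehyde dehydrogenases 1 rose: Aldh3a1, which oxidizes medium-chain and aromatic aldehydes, at 5.13 ± 1.74 FPKM in aged controls and 0.392 ± 0.198 FPKM in young controls (SD, n = 5 each; 2.10, SE 0.27, adjusted p = 9.63e-05). Young controls had 0.14 to 0.67 FPKM, so Aldh3a1 passed the filter, a mean of at least 1 FPKM, only through the aged groups where it was high. Among 18 tested glutathione S-transferases, Gstt1, a theta-class enzyme, rose beside Gstm2, at 44.9 ± 14.9 FPKM in aged controls and 19.1 ± 3.90 FPKM in young controls (1.15, SE 0.25, adjusted p = 0.0101). Mgst1, a membrane-bound enzyme of the same list, fell to 4.52 ± 1.02 FPKM in aged controls, against 12.5 ± 2.02 FPKM in young controls (-1.30, SE 0.17, adjusted p = 0.000107). The list's median was 0.44, against -0.02 over all tested genes. Among the 10 tested aldo-keto and carbonyl reductases, Cbr3 rose (1.05, adjusted p = 0.0227) and Akr1c12 and Akr1c13 fell (-0.80 and -0.47, adjusted p = 0.00282 and 0.019).

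The retinoic acid list, the pathway in which ALDH1A1 makes the active ligand, had 5 of its 10 tested genes called, all higher in aged than in young controls, with a median of 0.52. Dhrs3, which reduces retinal back to retinol, averaged 25.3 ± 8.44 FPKM in aged controls and 6.50 ± 1.75 FPKM in young controls (SD, n = 5 each; 1.79, SE 0.29, adjusted p = 0.000846). Rdh10, which makes retinal, rose by 1.07 (adjusted p = 0.00167), and Cyp26b1, which degrades retinoic acid, by 1.34 (adjusted p = 0.00253). Of the receptors, Rarg rose by 0.76 (adjusted p = 0.019) and Rarb by 0.77 (adjusted p = 0.0362), while Rara (0.29, adjusted p = 0.38) and Rxra (0.23, adjusted p = 0.535) were not called. The called genes therefore include ones that make or remove retinal, from which the ligand is made, and ones that degrade or sense the ligand.

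In the remaining lists few genes were called between aged and young controls. Ephx1, microsomal epoxide hydrolase, rose to 19.0 ± 4.26 FPKM in aged controls, against 9.31 ± 1.13 FPKM in young controls (0.93, SE 0.19, adjusted p = 0.00708), the 1 called gene of 11 on the AHR and cytochrome P450 list. Ggt1, which breaks down extracellular glutathione, rose by 0.72 (adjusted p = 0.0331), the 1 called gene of 11 for glutathione synthesis and recycling. It was low, at 2.10 ± 0.685 FPKM in aged controls and 0.878 ± 0.382 FPKM in young controls. With a young control mean under 1 FPKM, Ggt1 passed the filter only through the aged groups. Of 13 NRF2 regulators and targets, Hmox1 (heme oxygenase) fell by 0.91 on the log2 scale (adjusted p = 0.0234) and none rose, and Nfe2l2 and Nqo1 differed by -0.02 and -0.03 (adjusted p = 0.953 and 0.945). None of 6 drug efflux transporters was called, Abcg2 differing by -0.11 (adjusted p = 0.634). In the labelled knockout libraries against aged controls 1 of the 88 genes was called (1.14%): Mgst1 rose to 8.38 ± 1.98 FPKM, against 4.52 ± 1.02 FPKM in aged controls (0.76, SE 0.17, adjusted p = 0.0267). Against young controls, the labelled knockout libraries had 3 of the 88 higher and 1 lower (4.55%). These were Aldh3a1 (1.09, adjusted p = 0.048), Ephx1 (1.13, adjusted p = 0.00443), Rdh10 (1.07, adjusted p = 0.00513) and Hmox1 (-1.27, adjusted p = 0.00513). For Aldh3a1 the limit given above holds here too, as it passed the filter only through the aged groups.

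**Figure D4:**
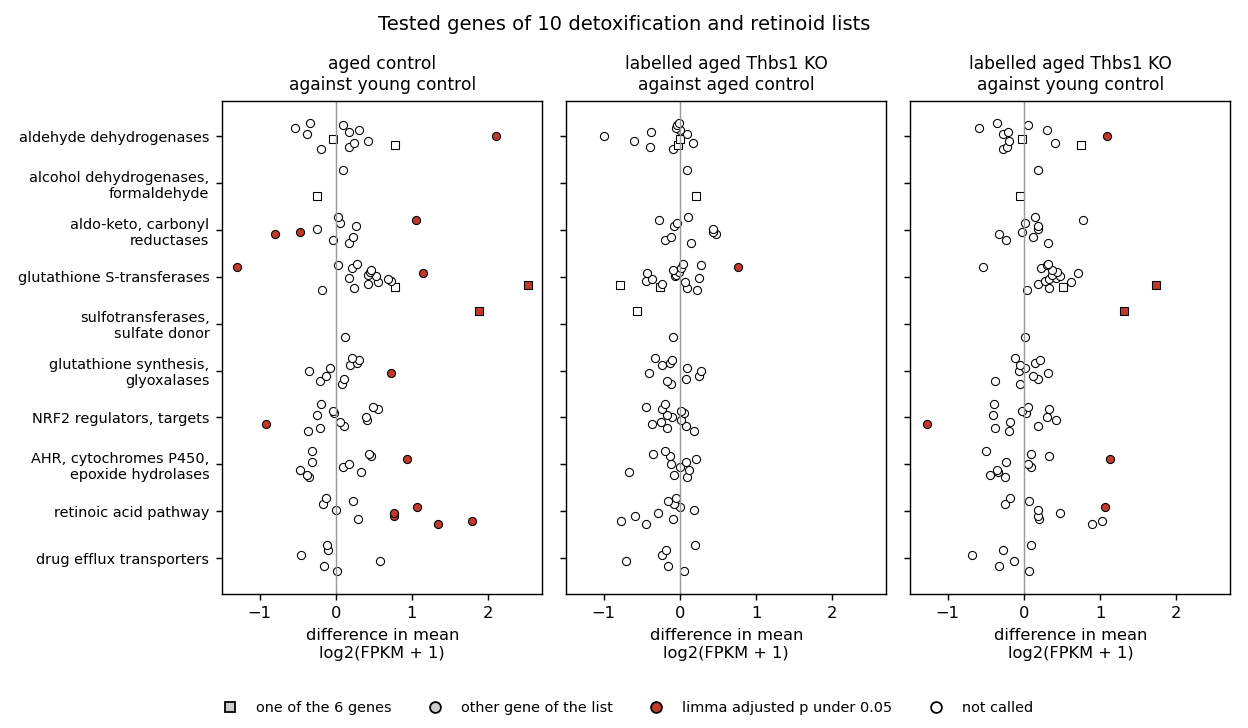
Difference in mean log2(FPKM + 1) of each tested gene of the 10 lists (rows) in the 3 comparisons (panels); squares are the 6 genes, circles the others, and filled symbols passed limma's adjusted p of 0.05. The retinoic acid row has 5 filled points to the right of 0 in the first panel, and the middle panel has 1 filled point, Mgst1.

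The genes whose log2 levels most resembled those of each member over the 15 libraries differed between members. They were Jam2 (r = 0.96), Gadd45g (0.94) and Wwtr1 (0.93) for Sult1a1, and Nrg4 (0.92), Xdh (0.91) and Gpx3 (0.90) for Aldh1a1. For Gstm2 they were Npdc1, Cldn5 and Fetub (0.96 each), of which Cldn5 averaged 18.6 FPKM in the labelled knockout libraries, 64.6 FPKM in aged controls and 2.96 FPKM in young controls. For Gstm1 they were Vmac, Fcgrt and Cd81 (0.96 each), for Adh5 Pak1ip1 (0.93), Nufip1 (0.92) and Hnrnpa1 (0.91), and for Aldh2 Ppm1f (0.89), Ddx54 (0.87) and Vars2 (0.86). Adh5 ran opposite to Gstm2 (r = -0.74) and to Gstm1 (r = -0.69). All these values are descriptions over libraries that share group, sex and depth.

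Summed marker levels moved with some of these groups. The 13 HSC markers summed to 722 to 924 FPKM in the labelled knockout libraries, 1030 to 1120 FPKM in aged controls and 897 to 938 FPKM in young controls, so the aged controls, in which Sult1a1 and Gstm2 were highest, stood above the rest. The 6 megakaryocyte and platelet markers, all detected, summed to 541 to 743, 697 to 2310 and 765 to 877 FPKM in the same groups. The part of these differences in the enzyme levels was not tested. Counting error is small beside the spread between libraries: the fewest reads behind a member in 1 library were 379, for Gstm2, a counting error of 5.14%, and Aldh2 had at least 11971.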

How the data were processed

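Bulk RNA-seq of sorted HSCs was analysed from 1 table of FPKM values for 20696 genes and 15 libraries, which the authors deposited with 2 decimals. The submitters' processing notes name edgeR, STAR and FastQC 0.11.5, and GRCm38 (mm10), with no order or settings. Strand and multi-mapping rules were not given in the sources used here. All identifiers matched GENCODE M21, which gave symbols, lengths and positions.

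Columns were assigned to groups by the sample titles in the table, and sex by its library names. GEO's sample descriptions pair these names otherwise, with 5 columns the same and 10 different. Reads were recovered from FPKM rounding: in genes of 251 to 500 bases, which were held out, 97.6% to 98.3% of values were whole within 0.1 reads.

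Values were analysed as log2(FPKM + 1), which understates changes of low genes. The 11345 genes with a mean of at least 1 FPKM were fitted with limma 3.58.1 (trend, R 4.3.3) over all 15 libraries with no covariate, two-sided, and called at a Benjamini-Hochberg adjusted p under 0.05. Code was tested on simulated data. Single genes were compared with exact permutation tests. Alternatives were another pseudocount, other filters and scalings, sex as a covariate or within sex, a replicate block, the other column assignment and leaving out libraries.

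Members and lists were chosen with earlier results of these data known. Named genes were the members, Thbs1, Aldh1a7 and Gstm3 to Gstm7, per list and comparison those of the 4 lowest p that were called, and the 3 genes most correlated with each member, leaving out clone names, pseudogenes and sex-linked genes. Esd, Papss1, Rarb, Rara, Rxra, Nfe2l2, Nqo1, Abcg2 and the sequence and strand partners were named after their values were seen. Neither protein sequences nor an Aldh2 promoter were used here.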

Additional observations from a re-analysis of the deposited data

Results flagged for a closer look

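Sult1a1 in the aged controls was flagged because replicate 4, at 287.42 FPKM, stood far from the other 4, which lay at 156.42 to 185.48 FPKM. Its gap to the nearest value was 0.778 of the group's range, above the critical value of 0.71. At this 95% level chance flags about 5% of groups, and 18 groups of the 6 genes were looked at. The aged against young call for Sult1a1 was made with and without this library.

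Aldh2 was flagged because its difference between aged and young controls had opposite signs in the sexes. Both female aged controls, at 140.91 and 132.58 FPKM, lay below all 3 female young controls, at 157.40, 151.52 and 169.02 FPKM. All 3 male aged controls, at 160.80, 148.66 and 150.02 FPKM, lay above both male young controls, at 125.89 and 144.07 FPKM. The change in females minus that in males was -0.40 on the log2 scale (SE 0.25, unadjusted p = 0.126 and adjusted p = 0.642 by limma), so the test did not separate the sexes.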

How the results depend on the processing

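Under the 11 alternatives and 15 single omissions, Sult1a1 and Gstm2 kept their rise in aged against young controls except as follows. In female libraries Sult1a1 was 1.81 and not called (adjusted p = 0.189). With the columns assigned by GEO's descriptions limma called 0 genes between aged and young controls (642 at an unadjusted p under 0.05) and 0 members, and the differences were -0.17 for Aldh1a1, 0.07 for Aldh2, 0.29 for Adh5, -0.47 for Sult1a1, -0.43 for Gstm1 and -1.43 for Gstm2. In that assignment the labelled knockout libraries against aged controls gave 0 genes (731 unadjusted) and differences of 0.99 for Aldh1a1, -0.05 for Adh5, 1.39 for Sult1a1 and 0.61 for Gstm2. Against young controls they gave 15 genes and 0 members, with 0.24 for Adh5, -0.54 for Gstm1 and -0.82 for Gstm2. All results thus rest on the titles in the table. Genes called in aged against young controls were 1093 in males, 27 in females and 1030 without labelled knockout replicates 2 and 5, with 4 members called in males, 4 with sex as a covariate and 1 in females. Genes called between labelled knockout and aged control libraries were 10 in females, and members 2 in males. Between labelled knockout and young control libraries, genes called were 429 with sex as a covariate, 875 in males and 11 in females, and members were 0 with no filter on low values (adjusted p = 0.0645 for Sult1a1 and 0.087 for Gstm2), 1 in females and 0 without replicates 2 and 5.

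Leaving out 1 library at a time gave 311 to 943 genes in aged against young controls (943 without aged control replicate 5, 311 without aged control replicate 3), 95 to 229 between labelled knockout and aged controls (95 without aged control replicate 1) and 98 to 676 between labelled knockout and young controls (98 without young control replicate 1), where 0 to 2 members were called. Members called in aged against young controls were 2 to 3 in these fits. Aldh2 ranged from -0.09 to 0.02, -0.07 to 0.07 and -0.09 to 0.05 in the 3 comparisons, and Aldh1a1 between labelled knockout and aged controls from -0.25 to 0.13. Differences also changed sign elsewhere. Aldh1a1 was 0.00 with quantile normalization and 0.01 with median-of-ratios scaling between labelled knockout and aged controls. Aldh2 was 0.18 in males between aged and young controls. Between labelled knockout and aged controls it was 0.04 with median-of-ratios scaling, 0.10 in females and 0.15 without replicates 2 and 5, and against young controls it was 0.01 with that scaling, 0.10 in males and 0.13 without those replicates. Adh5 was 0.04 in males between labelled knockout and young controls. In females Gstm1 was 0.03 and Gstm2 0.22 between labelled knockout and aged controls. With all libraries these were -0.26 and -0.79, so the change of sign in Gstm2 did not start from a difference near 0. The causes were not tested.

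Replicate numbers showed no steady pairing: same-numbered libraries correlated at -0.455 to 0.527 in their deviations from the group means, over 0.1 in 6 of 15 pairs. The pairs of replicate 2 had 0.489, 0.47 and 0.372, and those of replicate 3 had -0.262, 0.107 and -0.455. Deviations were not adjusted for sex, which follows these numbers, so this check cannot decide whether libraries of 1 number were paired. With the number as a replicate block, 499, 152 and 158 genes were called in the 3 comparisons and 4, 0 and 2 members, Aldh1a1 (adjusted p = 0.0228) and Gstm1 (adjusted p = 0.049) joining between aged and young controls.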
